A study of Homo sapiens with 9 samples.

Results

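The genes described here are the subunits of the hypoxia-inducible factors (HIF) and the enzymes that mark them for degradation or inhibit them according to oxygen supply. They were chosen by name from a table of RNA levels, as HIF1A, EPAS1, ARNT, VHL, EGLN1, EGLN2 and HIF1AN. Of these 7 genes, 6 had values among the 22290 genes of the table, and the RNA level of EGLN2 was not analysed here. The libraries come from work on TRAP-1, a heat shock protein of mitochondria, and on energy use in cancer cells. RNA was sequenced from 9 libraries of cells labelled IMR-32, an established human neuroblastoma line. There were 3 libraries of the parental cells (labelled WT), 3 whose label is knockdown of TRAP-1 (KD) and 3 whose label is its overexpression (OE). The KD and OE cells had been made earlier from this line, and the vector, the promoter and whether each is a single clone are not given in the sources used here. Cells of all 3 groups were grown in serum-containing medium in a carbon dioxide incubator, and the oxygen level is not given in the sources used here. RNA was isolated in triplicate, but no source says that the triplicates were separate cultures, so the p-values measure only the spread between libraries, which may be technical.

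HIF is a transcription factor made of an oxygen-sensitive alpha subunit, HIF-1 alpha (HIF1A) or HIF-2 alpha (EPAS1), and the stable beta subunit ARNT. With oxygen, the prolyl hydroxylases of the EGLN family modify the alpha subunit, the VHL protein then binds it within a ubiquitin ligase, and it is degraded, while the asparaginyl hydroxylase HIF1AN keeps it from binding its coactivators. This control acts on the protein, so an RNA level is not a measure of how much HIF protein or activity a cell holds. In tumors of the sympathetic nervous system, both alpha subunits and their target genes have been studied for their part in vascularization and in the switch to glycolysis.

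All values are regularized log2 values (rlog), which the authors scaled for library size and drew toward the mean of each gene, more strongly for low genes. Differences between groups are differences of mean rlog and therefore understate the change in RNA, most of all at low levels. The paper gives a single coverage for the sequencing and none for each library, and rlog values do not keep it. Off the log scale, the sum over genes ranged from 34928745 to 35211787 among the 9 libraries. A gene was called where limma, fitted to the 9 libraries and all 22290 genes together, gave a Benjamini-Hochberg adjusted p under 0.05.

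TRAP1 itself checks the labels. Its rlog was 10.67, 10.66 and 10.65 in the parental libraries, 10.79, 10.79 and 10.83 in the libraries labelled KD and 10.67, 10.63 and 10.74 in the libraries labelled OE. The 3 libraries labelled KD lay above the parental libraries, against their label, and the libraries labelled OE overlapped the parental ones. Between KD and parental the TRAP1 difference was 0.14 (SE 0.025, limma adjusted p = 1.76e-05), and the libraries labelled OE differed from parental by 0.018 (SE 0.025, limma adjusted p = 0.643). After the median of neighbouring genes in 20-Mb stretches of the chromosome was subtracted, the OE difference was 0.061 and called (limma adjusted p = 0.0488, range over the alternatives 0.0488 to 0.782). Such ranges here include the unadjusted p, which is among the alternatives. Exons of other genes, mainly the antisense neighbour DNASE1, cover 28.5% of the exonic bases of TRAP1. KD and OE therefore stand for the labels of the libraries, and no direction of TRAP-1 is read from them.

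The labelled cell type was checked against marker lists, although the methods of the study say that the line had been authenticated. Of 24 neuroblastoma markers 17 had values, 5 had a mean rlog of at least 8, and 2, PHOX2A (1.34) and UCHL1 (0.83), were under 2. MYCN, which is amplified in IMR-32 cells, was at 2.54, 2.46 and 2.54 in the parental libraries, 2.58, 2.61 and 2.61 in those labelled KD and 2.52, 2.50 and 2.51 in those labelled OE, at percentile 18.9 of all genes by mean rlog. TH, the enzyme that starts catecholamine synthesis, had a mean rlog of 2.73. PHOX2A, MYCN, TH and UCHL1 were thus low in the table in cells labelled neuroblastoma. Of the 17 markers with values, 9 had a mean rlog of at least 5, and LIN28B had the highest (9.85, not scaled by length). Of 20 epithelial markers 16 had values and 6 had a mean of at least 8, led by KRT18 (12.04), while KRT5, KRT20 and OCLN were under 2. The epithelial values, summed off the log scale, were 9147 to 9308 in the parental libraries, 8808 to 9189 in those labelled KD and 7843 to 7899 in those labelled OE. The corresponding sums were 3491 to 3502, 3517 to 3596 and 3626 to 3703 for the neuroblastoma list. Of its members, 5 were called higher and 7 lower in KD (median difference -0.039, beside 26.9% and 26.9% of all genes). In OE 2 were higher and 3 lower (median -0.015, beside 16.9% and 18.0%). For 6 endothelial markers the sums were 1036 to 1057, 1125 to 1154 and 759 to 830, led by PECAM1 (9.50) with CDH5 under 2. For 7 of 8 fibroblast markers with values they were 411 to 437, 412 to 466 and 446 to 463, led by PDGFRB (8.53) and with COL1A2, COL3A1 and FAP under 2. For 4 of 7 blood markers they were 87 to 89, 73 to 75 and 76 to 83, led by LYZ (5.82) and with HBA1 under 2. What part the cell types these lists stand for had in the differences between groups was not tested, and in these bulk libraries fewer cells of a type and less RNA per cell cannot be told apart.

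Among the 6 genes with values, 4 were called between the libraries labelled KD and parental, beside 53.7% of all genes. ARNT and HIF1AN were higher (26.9% of all genes were called higher), and VHL and HIF1A were lower (26.9% of all genes were called lower). Between the libraries labelled OE and parental 3 were called, beside 34.8% of all genes, with EPAS1 and ARNT higher (16.9% of all genes higher) and HIF1AN lower (18.0% of all genes lower). Directly between OE and KD 4 were called, beside 47.3% of all genes, with EPAS1 and VHL higher in OE (23.5% of all genes higher) and ARNT and HIF1AN lower (23.8% of all genes lower). With so many genes called, these counts are near the background and say nothing particular about the HIF genes as a group. The comparisons with parental share the parental libraries. The median difference of the 6 genes was -0.021 between KD and parental, 0.022 between OE and parental and 0.020 between OE and KD, beside -0.00051, 0.00039 and 0.00078 over all genes.

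**Figure D1:**
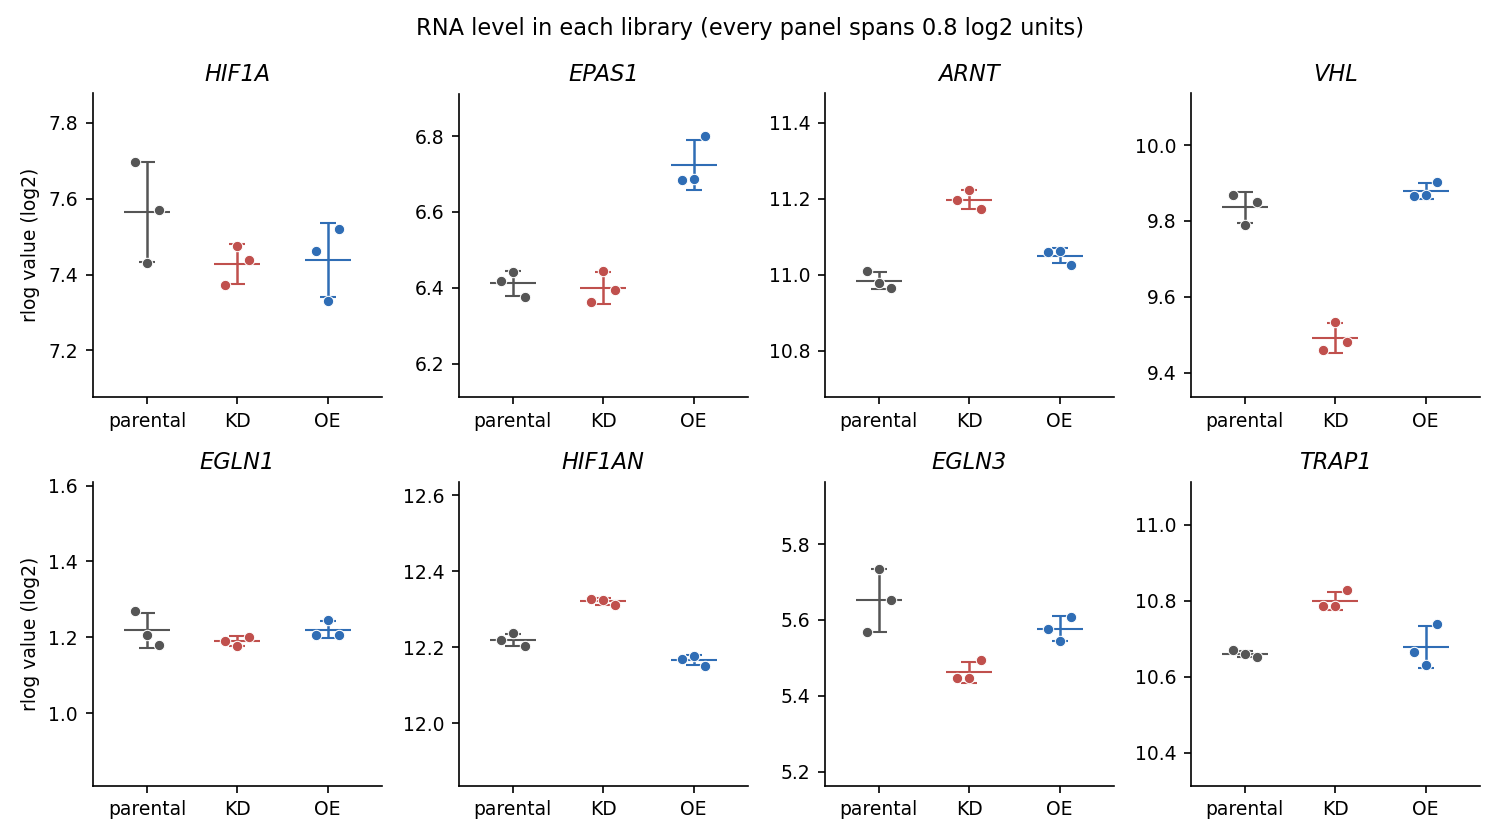
Each panel plots the rlog value (log2, vertical axis) of 1 gene in the 3 parental libraries and the 3 libraries labelled KD and OE, with dots for libraries and bars for the group mean ± SD (n = 3), and each vertical axis spans 0.8 log2 units. EPAS1 is high in the OE libraries alone (6.68 to 6.80), VHL is low in the KD libraries alone (9.46 to 9.54), and EGLN1 lies at 1.18 to 1.27 in the 9 libraries.

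HIF1A (ENSG00000100644, chromosome 14 from 61695513 to 61748259 on the plus strand of GRCh38, GENCODE release 44) encodes HIF-1 alpha, the more widely expressed alpha subunit. Its rlog was 7.70, 7.43 and 7.57 in the parental libraries, 7.37, 7.47 and 7.44 in those labelled KD and 7.46, 7.33 and 7.52 in those labelled OE. The 3 groups overlapped, and the parental libraries spread the most (SD 0.13). The KD mean was lower than the parental mean by a difference of -0.14 (SE 0.053, limma adjusted p = 0.0287), a call that rests on single libraries. Without parental replicate 1 the difference was -0.072 (limma adjusted p = 0.288), without parental replicate 3 it was -0.14 (limma adjusted p = 0.0648), and without KD replicate 1 it was -0.11 (limma adjusted p = 0.132). The adjusted p was 0.113 in limma fitted with no variance trend, and the range over the alternatives was 0.0018 to 0.288. The OE difference from parental was of like size, -0.13 (SE 0.053), and was not called (limma adjusted p = 0.0616). It was smaller without parental replicate 1 (-0.062, limma adjusted p = 0.441) and without OE replicate 2 (-0.074, limma adjusted p = 0.365). It was called with the replicate number as a block (limma adjusted p = 0.0404), after quantile normalization (-0.16, limma adjusted p = 0.0246), after subtraction of the medians of neighbouring genes (-0.14, limma adjusted p = 0.0318), without parental replicate 2 (-0.19, limma adjusted p = 0.00506) and without OE replicate 3 (-0.17, limma adjusted p = 0.0205), within a range of 0.00506 to 0.441 over the alternatives. OE and KD differed by 0.0099 (limma adjusted p = 0.899). HIF1A RNA was thus not higher than parental in either group. Other genes, 2 of them antisense, overlap 11.3% of its exonic bases, and the library kit did not keep strand, so reads there cannot be assigned to 1 gene.

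EPAS1 (ENSG00000116016, chromosome 2 from 46293667 to 46386697, plus strand) encodes HIF-2 alpha, and none of its exonic bases are shared with another gene. Its rlog was 6.42, 6.44 and 6.38 in the parental libraries, 6.36, 6.44 and 6.39 in those labelled KD and 6.68, 6.69 and 6.80 in those labelled OE. The 3 OE libraries lay above the other 6, and the parental and KD libraries overlapped. The OE mean of 6.72 ± 0.066 (SD, n = 3) was above the parental mean of 6.41 ± 0.033 (SD, n = 3) by 0.31 (SE 0.046, limma adjusted p = 1.89e-06) and above the KD mean by 0.32 (SE 0.046, limma adjusted p = 5.00e-07). Between KD and parental the difference was -0.013, with a 95% confidence interval of -0.11 to 0.082 (limma adjusted p = 0.842). That small difference moved to -0.048 after quantile normalization (limma adjusted p = 0.402) and was never called, within a range of 0.402 to 0.981 over the alternatives.

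ARNT (ENSG00000143437, chromosome 1 from 150809713 to 150876708, minus strand), the beta subunit, had rlog values of 11.01, 10.98 and 10.97 in the parental libraries, 11.20, 11.22 and 11.17 in those labelled KD and 11.06, 11.06 and 11.03 in those labelled OE. The groups did not overlap, with KD highest, OE between and parental lowest. Against the parental mean of 10.98 ± 0.023 (SD, n = 3), ARNT was higher by 0.21 in KD (SE 0.022, limma adjusted p = 5.60e-10) and by 0.065 in OE (SE 0.022, limma adjusted p = 0.0199), and OE lay below KD by a difference of -0.15 (SE 0.022, limma adjusted p = 9.70e-07). The OE call was lost on leaving out parental replicate 2 (0.062, limma adjusted p = 0.0588), parental replicate 3 (0.055, limma adjusted p = 0.0865), OE replicate 1 (0.060, limma adjusted p = 0.0661) or OE replicate 2 (0.059, limma adjusted p = 0.0789), within a range of 0.00381 to 0.0865 over the alternatives.

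The promoters of the 7 genes were searched for the core of the hypoxia response element, the short sequence HIF binds. The core was taken as ACGTG or GCGTG on either strand. The windows are the 250 bases before and 50 after each transcription start, from RefSeq on GRCh38.p14, and 6 of the 7 genes, all but VHL, matched an entry. Of the 8 windows of these 6 genes, 4 hold either form. CA9, a HIF target with a well known element beside its start, is shown for comparison since it is the target with the largest difference. The capitals mark the cores, and each window is printed in the direction of transcription. EPAS1 is at chr2:46297157-46297456 (plus strand), ARNT at chr1:150876550-150876849 (minus strand), HIF1AN at chr10:100535693-100535992 (plus strand) and CA9 at chr9:35673678-35673977 (plus strand).
EPAS1: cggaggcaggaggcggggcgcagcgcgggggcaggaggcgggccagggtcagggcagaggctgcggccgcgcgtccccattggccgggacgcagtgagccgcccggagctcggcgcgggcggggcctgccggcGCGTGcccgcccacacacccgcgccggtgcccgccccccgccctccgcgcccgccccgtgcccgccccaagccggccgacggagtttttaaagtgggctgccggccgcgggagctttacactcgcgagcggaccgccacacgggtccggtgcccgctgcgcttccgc
ARNT: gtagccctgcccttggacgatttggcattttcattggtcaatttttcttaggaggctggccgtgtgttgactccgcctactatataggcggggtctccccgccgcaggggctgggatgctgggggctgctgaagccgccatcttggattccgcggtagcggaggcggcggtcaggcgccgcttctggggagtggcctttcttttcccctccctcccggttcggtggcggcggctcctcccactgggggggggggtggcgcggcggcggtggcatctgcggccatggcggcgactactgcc
HIF1AN: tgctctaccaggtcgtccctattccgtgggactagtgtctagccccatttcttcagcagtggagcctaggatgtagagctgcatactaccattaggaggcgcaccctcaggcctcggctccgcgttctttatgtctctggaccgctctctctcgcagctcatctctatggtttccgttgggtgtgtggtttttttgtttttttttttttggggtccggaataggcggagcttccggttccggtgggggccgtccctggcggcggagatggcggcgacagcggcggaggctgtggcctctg
CA9: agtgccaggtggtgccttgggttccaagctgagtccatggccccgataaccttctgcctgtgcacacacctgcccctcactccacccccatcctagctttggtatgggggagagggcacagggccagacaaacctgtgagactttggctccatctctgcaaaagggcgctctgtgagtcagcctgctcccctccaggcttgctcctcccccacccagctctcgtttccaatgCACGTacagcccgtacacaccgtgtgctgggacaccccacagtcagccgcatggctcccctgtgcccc
The EPAS1 window holds 1 core, GCGTG, at position -117 from the start, and that of CA9 holds 1, ACGTG on the opposite strand at position -18. ARNT and HIF1AN hold neither form in these windows. Of genes not printed, HIF1A holds 1 GCGTG in 1 of its 2 windows, EGLN1 holds 1 ACGTG and EGLN2 holds 2 ACGTG in 1 of its 2 windows. Of all 35116 windows, 21.4% hold ACGTG, 36.5% hold GCGTG and 48.4% hold either, and of the 98 windows matched to 63 listed hypoxia targets 79.6% hold either. A match describes the letters and is not evidence of binding.

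VHL (ENSG00000134086, chromosome 3 from 10141778 to 10153667, plus strand), the substrate receptor of the ligase, had rlog values of 9.87, 9.79 and 9.85 in the parental libraries, 9.46, 9.54 and 9.48 in those labelled KD and 9.87, 9.87 and 9.90 in those labelled OE. The 3 KD libraries lay below the other 6, and OE and parental overlapped. VHL fell from 9.84 ± 0.041 (SD, n = 3) in the parental libraries to 9.49 ± 0.039 (SD, n = 3) in KD, a difference of -0.34 (SE 0.029, limma adjusted p = 6.42e-12), and was higher in OE than in KD by 0.39 (SE 0.029, limma adjusted p = 5.70e-13). Between OE and parental the difference was 0.043, with a 95% confidence interval of -0.017 to 0.10 (limma adjusted p = 0.290). It was 0.020 without parental replicate 2 (limma adjusted p = 0.704) and 0.026 after subtraction of the medians of neighbouring genes (limma adjusted p = 0.523), within a range of 0.154 to 0.704 over the alternatives.

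The neighbours of VHL moved with it. In the first 20 Mb of chromosome 3, 82 other genes had a mean rlog of at least 5. Between KD and parental 62 of them were called lower and 13 higher, beside 26.9% and 26.9% of all genes. Of the 14000 genes with such a mean, fitted alone, 10189 were called in this comparison, 5050 of them higher. The median difference of the neighbours was -0.28, beside -0.00051 over all genes. Of these neighbours 29 had a lower difference than VHL. Between OE and KD 64 were called higher and 10 lower (median 0.31), beside 23.5% and 23.8% of all genes. Between OE and parental 25 were higher, 9 lower and 48 not called (median 0.015), beside 16.9% higher and 18.0% lower of all genes. With the median of the neighbours subtracted in each library, the VHL difference was -0.070 between KD and parental (limma adjusted p = 0.0407, range over the alternatives 6.92e-13 to 0.0407) and 0.096 between OE and KD (limma adjusted p = 0.00648, range 3.49e-14 to 0.00648). Most of the VHL difference was therefore shared with its stretch of the chromosome. An antisense gene shares 23.5% of the exonic bases of VHL.

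**Figure D2:**
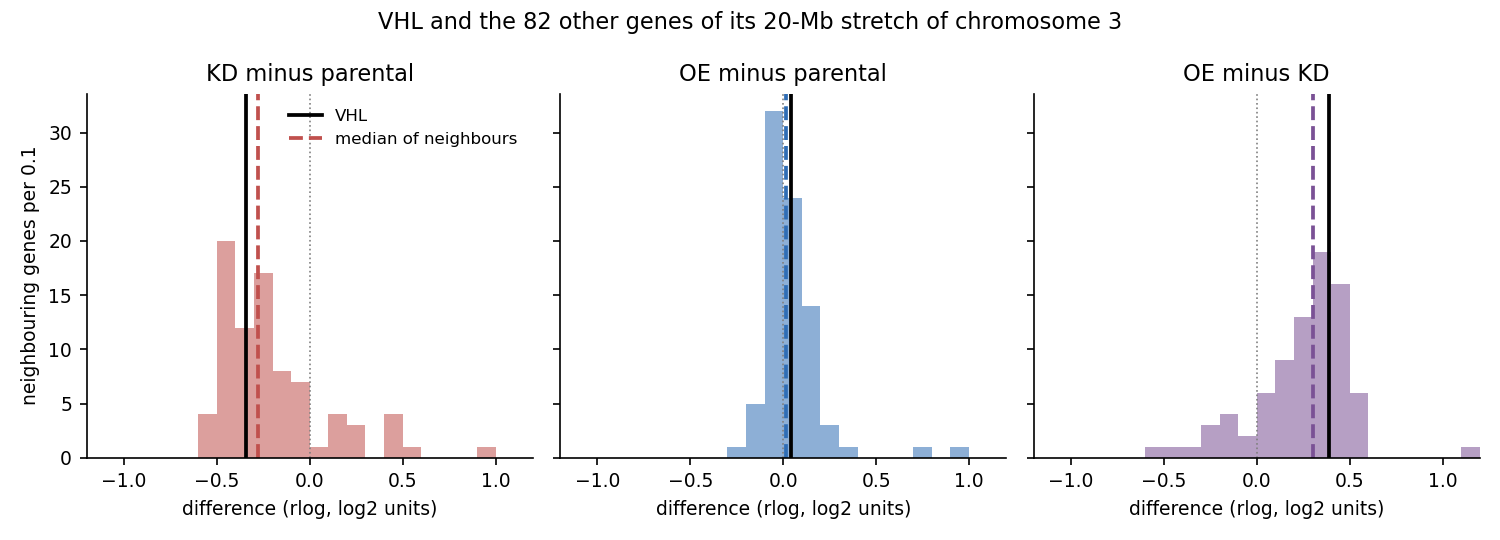
The histograms count the 82 neighbouring genes of the first 20 Mb of chromosome 3 by their difference between groups (rlog, log2 units, bins of 0.1), with VHL as the solid line, the median of the neighbours as the dashed line and 0 as the dotted line. VHL (-0.34) and the median (-0.28) lie close together below 0 between KD and parental, and near 0 between OE and parental.

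The prolyl hydroxylase EGLN1 (ENSG00000135766, chromosome 1 from 231363751 to 231422287, minus strand), known as the main sensor that sets HIF-1 alpha levels in oxygen, was close to the bottom of the table, at percentile 8.21 by mean rlog. Its rlog was 1.27, 1.21 and 1.18 in the parental libraries, 1.191, 1.176 and 1.202 in those labelled KD and 1.21, 1.25 and 1.21 in those labelled OE. The parental libraries overlapped both other groups, the OE libraries lay just above those labelled KD, and the differences were -0.029 (KD minus parental, limma adjusted p = 0.215), 0.0011 (OE minus parental, limma adjusted p = 0.978) and 0.030 (OE minus KD, limma adjusted p = 0.213). Only without parental replicate 3 was a difference called (KD minus parental, -0.049, limma adjusted p = 0.0443, range over the alternatives 0.0443 to 0.911), and without parental replicate 1 the same difference was -0.0031 (limma adjusted p = 0.911). At such a level rlog values hold little of any difference. Of the exonic bases of EGLN1, 55.8% are shared with a gene on the same strand, ENSG00000287856, whose own rlog was 5.14 to 5.27 in the parental libraries, so the level of EGLN1 is uncertain.

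The related EGLN3 (ENSG00000129521, chromosome 14 from 33924227 to 34462774, minus strand), a prolyl hydroxylase that is itself a HIF target, shares no exonic bases. Its rlog was 5.57, 5.74 and 5.65 in the parental libraries, 5.45, 5.45 and 5.49 in those labelled KD and 5.58, 5.54 and 5.61 in those labelled OE. The KD libraries lay below all others, and OE and parental overlapped. EGLN3 was lower in KD than in parental by a difference of -0.19 (SE 0.048, limma adjusted p = 0.0012), and the OE difference from parental was -0.075 (SE 0.048, limma adjusted p = 0.258). That difference moved with single libraries, to -0.12 without parental replicate 1 (limma adjusted p = 0.0923) and -0.033 without parental replicate 2 (limma adjusted p = 0.698), within a range of 0.0923 to 0.698 over the alternatives. Between OE and KD the EGLN3 difference was 0.11 (SE 0.048, limma adjusted p = 0.0501), just past the threshold, and was called under 8 of 17 alternatives (limma adjusted p 0.015 to 0.146 over these alternatives).

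HIF1AN (ENSG00000166135, chromosome 10 from 100529072 to 100559998, plus strand), the asparaginyl hydroxylase also called FIH, had rlog values of 12.22, 12.24 and 12.20 in the parental libraries, 12.33, 12.32 and 12.31 in those labelled KD and 12.17, 12.18 and 12.15 in those labelled OE. The groups did not overlap, with KD highest, parental between and OE lowest. From a parental mean of 12.22 ± 0.017 (SD, n = 3), HIF1AN was higher in KD by 0.10 (SE 0.017, limma adjusted p = 4.94e-06) and lower in OE by a difference of -0.054 (SE 0.017, limma adjusted p = 0.0127), and OE differed from KD by -0.16 (SE 0.017, limma adjusted p = 2.54e-09). The OE call against parental was lost after quantile normalization (-0.035, limma adjusted p = 0.108), after subtraction of the medians of neighbouring genes (-0.042, limma adjusted p = 0.0553), without parental replicate 2 (-0.045, limma adjusted p = 0.0708) and without OE replicate 3 (-0.047, limma adjusted p = 0.0522), within a range of 0.0035 to 0.108.

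**Figure D3:**
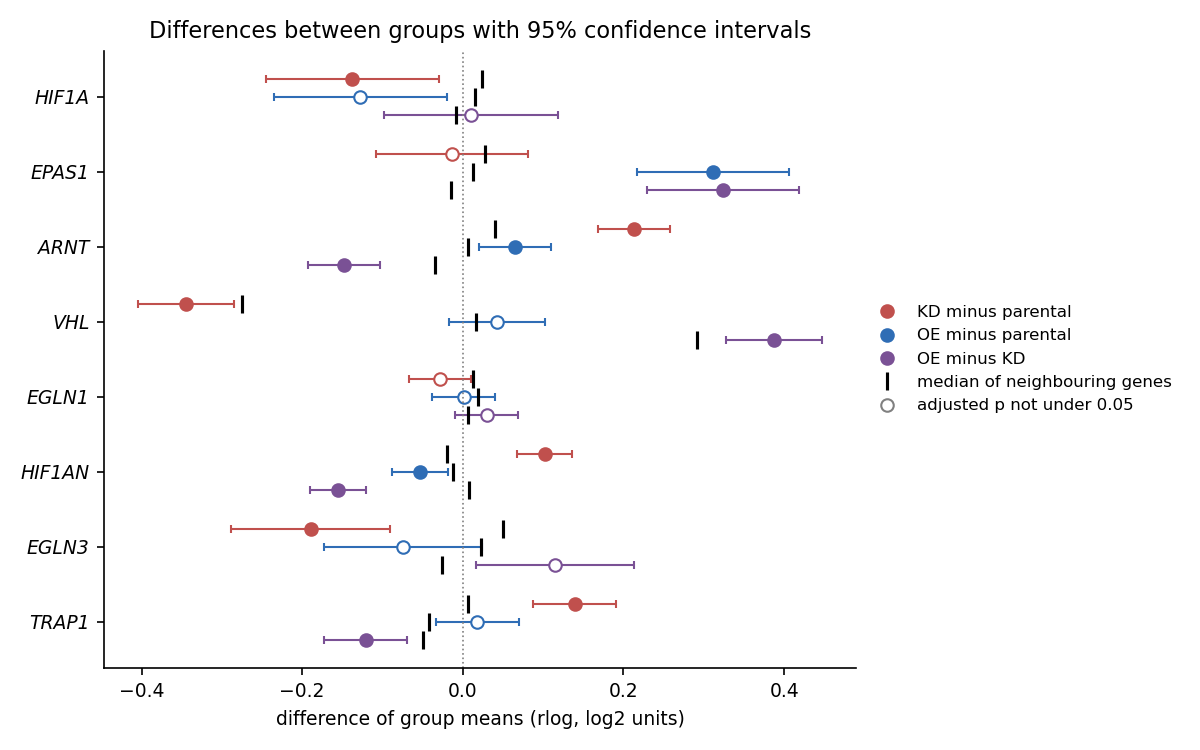
Points give the difference of mean rlog between groups (log2 units, horizontal axis) for each gene with its 95% confidence interval from limma, filled where the adjusted p was under 0.05, and black ticks give the median deviation of the neighbouring genes from their own means, taken in each library and averaged by group. Between KD and parental the tick of VHL is at -0.27, close to but not the same quantity as the median of the 82 differences (-0.28), and its point is at -0.34.

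To compare levels between genes, each mean rlog was taken off the log scale and divided by the kilobases of exon that no other gene shares. On this scale of level per kilobase, parental HIF1AN (351) and ARNT (314) stood above VHL (239), followed by HIF1A (41.4), EPAS1 (11.7), EGLN3 (6.83) and EGLN1 (0.979). ARNT2, another beta subunit described below, stood above them all, at 579 in parental, 1578 in KD and 694 in OE. The order was kept in the groups labelled KD and OE, and neighbours in it did not overlap between libraries of a group. HIF1AN and ARNT came closest, at 374 to 379 and 358 to 371 per kilobase in KD and at 335 to 341 and 324 to 332 in OE. The beta subunit ARNT stood above the sum of both alpha subunits in every group on this scale. That length is all annotated exon outside shared bases, of which a cell may use only a part. Over all exonic bases the parental level of EGLN1 was 0.432 and that of VHL 183 per kilobase, and the order of the genes was the same. The place of EGLN1 is uncertain, since 55.8% of its exonic bases are shared with a gene on the same strand.

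**Figure D4:**
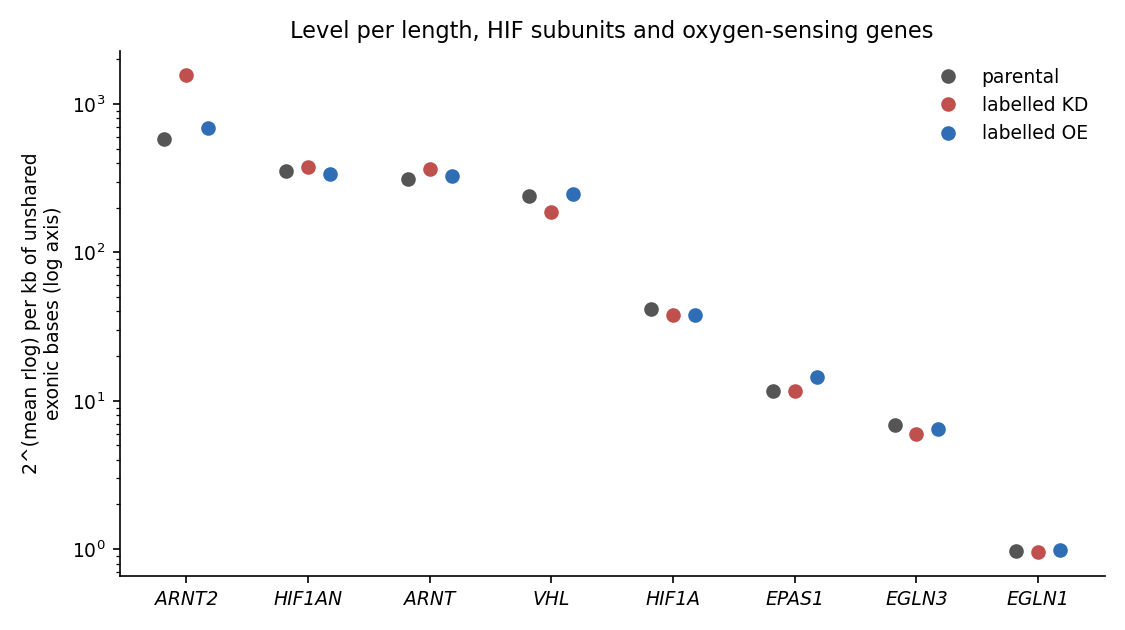
Dots give 2 to the power of the mean rlog per kilobase of unshared exon (log axis) for each gene in the parental libraries and those labelled KD and OE. ARNT2 in KD (1578) stands apart from parental (579) and OE (694), and EGLN1, whose level is uncertain, is lowest at 0.960 to 0.980.

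The largest difference among the relatives of the HIF subunits was that of ARNT2, a beta subunit of the nervous system that can pair with the alpha subunits in place of ARNT. Its rlog was 12.05, 12.07 and 12.06 in the parental libraries, 13.50, 13.52 and 13.50 in those labelled KD and 12.33, 12.31 and 12.33 in those labelled OE. The groups did not overlap, and KD stood far above the others. ARNT2 was higher than parental by 1.45 in KD (SE 0.016, limma adjusted p = 2.55e-35) and by 0.26 in OE (SE 0.016, limma adjusted p = 5.83e-15). Between KD and parental the median of its chromosomal neighbours, taken in each library, differed by 0.056. The table held 7 HIF and PAS relatives, and by the test 2 were higher and 2 lower in KD (median 0.034), 1 higher and 3 lower in OE (median -0.013) and 1 higher and 3 lower in OE than in KD (median -0.019, beside 23.5% and 23.8% of all genes). Both shares in KD, 28.6% higher and 28.6% lower, were near those of all genes (26.9% and 26.9%), and in OE all genes stood at 16.9% higher and 18.0% lower. NPAS2, a partner of the clock protein BMAL1, was higher in KD by 0.41 (limma adjusted p = 8.48e-21) and differed by -0.39 between OE and KD (limma adjusted p = 4.12e-20), with no call between OE and parental (0.017, limma adjusted p = 0.459). BMAL1 was lower in KD (-0.30, limma adjusted p = 1.23e-08) and in OE (-0.24, limma adjusted p = 2.12e-06). HIF3A, a further alpha subunit, was not analysed here.

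Other oxygen-dependent enzymes were counted in the same way. Of 5 with values, 1 was called higher and 2 lower in KD (median -0.021, beside 26.9% and 26.9% of all genes), 1 higher and 1 lower in OE (median -0.022, beside 16.9% and 18.0%), and 0 between OE and KD (median 0.016, beside 23.5% and 23.8%), where only EGLN3 had an unadjusted p under 0.05 (0.0237, limma). ADO, a thiol dioxygenase, was lower by a difference of -0.21 in KD (limma adjusted p = 5.84e-07) and -0.16 in OE (limma adjusted p = 5.08e-05). KDM5A, a histone demethylase, was higher in KD by 0.048 (limma adjusted p = 0.0152) and in OE by 0.064 (limma adjusted p = 0.00247), and the median of its neighbours differed by 0.041 in KD. A further list held 7 genes with values, for partners of VHL in its ubiquitin ligase and for factors that act on its cullin scaffold. Of these 7, 2 were higher and 2 lower in KD (median 0.022, beside 26.9% and 26.9% of all genes, near 28.6% each way here). In OE 0 were higher and 3 lower (median -0.027, beside 16.9% and 18.0%), and 1 was higher and 2 lower in OE than in KD (median 0.019, beside 23.5% and 23.8%). The scaffold CUL2 was lower in KD (-0.17, limma adjusted p = 4.10e-08) and in OE (-0.072, limma adjusted p = 0.0067), and the adaptor ELOC was lower in KD (-0.12, limma adjusted p = 1.83e-05) and in OE (-0.076, limma adjusted p = 0.00644). UBE2M, which joins NEDD8 to cullins, was lower in OE than in parental (-0.15, limma adjusted p = 1.24e-07) and than in KD (-0.21, limma adjusted p = 3.20e-11), and higher in KD than in parental (0.064, limma adjusted p = 0.00506).

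The list of coactivators and competitors of HIF had values for 10, and 5 passed as higher and 2 as lower in KD (median 0.058, beside 26.9% and 26.9% of all genes), 3 as higher and 1 as lower in OE (median 0.044, beside 16.9% and 18.0%), and 3 as higher and 4 as lower in OE than in KD (median -0.052, beside 23.5% and 23.8%). CITED4, which competes with HIF for its coactivators, was higher in KD by 0.47 (limma adjusted p = 2.11e-15) and not called in OE (0.068, limma adjusted p = 0.0656), and the repressor subunit ING4 was higher in KD by 0.26 (limma adjusted p = 1.49e-10) and in OE by 0.18 (limma adjusted p = 5.56e-07). The coactivator NCOA2 was higher by 0.22 in KD (limma adjusted p = 2.97e-09) and 0.15 in OE (limma adjusted p = 1.00e-05), and KAT5, with 38.6% of its exonic bases shared, by 0.13 in KD (limma adjusted p = 0.00521), with no call in OE (0.060, limma adjusted p = 0.251). The median of the neighbours of NCOA2 differed by 0.090 in KD and 0.064 in OE. The acetyltransferase KAT2B was lower in KD (-0.18, limma adjusted p = 2.39e-07) and higher in OE (0.28, limma adjusted p = 9.65e-11). On chromosome 3, the median of the KAT2B neighbours, taken in each library, differed by -0.23 between KD and parental, further than KAT2B itself, and by 0.050 between OE and parental. RBBP7 was lower in KD (-0.14, limma adjusted p = 2.83e-08) and not called in OE (-0.027, limma adjusted p = 0.236). CREBBP, the coactivator CBP, was lower in OE (-0.073, limma adjusted p = 0.0012) and not called in KD (-0.037, limma adjusted p = 0.0816). The median of the neighbours differed by -0.065 in KD for RBBP7 and by -0.041 in OE for CREBBP.

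Regulators of HIF stability had values for 22, and 4 were called higher and 13 lower in KD (median -0.085, or 18.2% and 59.1% beside 26.9% and 26.9% of all genes), 3 higher and 8 lower in OE (median -0.046, or 13.6% and 36.4% beside 16.9% and 18.0%) and 10 higher and 5 lower in OE than in KD (median 0.034, or 45.5% and 22.7% beside 23.5% and 23.8%). HSP90AA1, a chaperone that protects HIF-1 alpha without VHL, fell from 17.67 ± 0.016 (SD, n = 3) to 17.10 ± 0.014 (SD, n = 3) in KD, a difference of -0.56 (limma adjusted p = 3.14e-31), and differed by -0.18 in OE (limma adjusted p = 1.50e-17). RACK1, which competes with HSP90 for HIF-1 alpha, was higher by 0.13 in KD (limma adjusted p = 1.80e-14) and by 0.059 in OE (limma adjusted p = 1.69e-06). GSK3B, a kinase that marks HIF-1 alpha for degradation, was higher by 0.36 in KD (limma adjusted p = 8.80e-19) and 0.063 in OE (limma adjusted p = 0.00242, median of neighbours 0.041), and FKBP8 by 0.27 (limma adjusted p = 4.12e-13) and 0.13 (limma adjusted p = 3.76e-06). STUB1, a ubiquitin ligase with 42.5% of its exonic bases shared, was higher in KD by 0.25 (limma adjusted p = 1.18e-10) and not called in OE (-0.044, limma adjusted p = 0.169). The kinase PLK3 was lower in KD (-0.45, limma adjusted p = 8.48e-12) and in OE (-0.41, limma adjusted p = 2.30e-10), and the ubiquitin ligase MDM2 was lower in KD (-0.42, limma adjusted p = 1.18e-17) and in OE (-0.25, limma adjusted p = 1.33e-11).

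The hydroxylases need iron and 2-oxoglutarate. For 18 genes of their supply there were values, and 4 were called higher and 9 lower in KD (median -0.032, or 22.2% and 50% beside 26.9% and 26.9% of all genes), 6 higher and 7 lower in OE (median -0.0068, or 33.3% and 38.9% beside 16.9% and 18.0%) and 8 higher and 3 lower in OE than in KD (median 0.042, or 44.4% and 16.7% beside 23.5% and 23.8%). IDH2, which makes 2-oxoglutarate in mitochondria, was higher by 0.54 in KD (limma adjusted p = 2.46e-19) and 0.52 in OE (limma adjusted p = 4.87e-18), and its cytosolic counterpart IDH1 by 0.15 (limma adjusted p = 1.44e-07) and 0.13 (limma adjusted p = 3.10e-06). D2HGDH was higher in KD by 0.22 (limma adjusted p = 6.01e-09) and not called in OE (-0.054, limma adjusted p = 0.107). FH, whose substrate fumarate inhibits the hydroxylases, was lower in KD (-0.087, limma adjusted p = 3.00e-05) and higher in OE (0.057, limma adjusted p = 0.00587). The ferritin chain FTL was higher in KD (0.12, limma adjusted p = 5.15e-08) and OE (0.19, limma adjusted p = 4.51e-12), whereas FTH1, with 63.2% of its exonic bases shared, was lower in KD (-0.45, limma adjusted p = 2.10e-20) and in OE (-0.10, limma adjusted p = 1.56e-05). The iron regulatory protein ACO1 was lower in OE (-0.26, limma adjusted p = 2.41e-10) and not called in KD (-0.012, limma adjusted p = 0.717).

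The hypoxia targets, whose transcription HIF is known to raise, were set beside the HIF genes. Like the other lists, this list was chosen with earlier results of these data known. Of 80 listed targets 74 had values, and the list includes EGLN1 and EGLN3. Between KD and parental 45 were called higher and 15 lower, that is 60.8% and 20.3% beside 26.9% and 26.9% of all genes, with a median difference of 0.16. Between OE and parental 52 were called higher and 7 lower, 70.3% and 9.46% beside 16.9% and 18.0%, with a median of 0.18. Between OE and KD 37 of the 74 were called higher in OE and 16 lower, beside 23.5% and 23.8% of all genes, with a median of 0.072. Of the 74, 68 had a mean rlog of at least 5, whereas the shares of all genes include low genes, which were called less often. In the fit to the 14000 genes at 5 or more, 5050 were called higher in KD and 3500 in OE. In that fit 46 targets were called higher in KD and 52 in OE. CA9, a carbonic anhydrase of the cell surface, rose from 7.03 ± 0.037 (SD, n = 3) in parental to 8.87 ± 0.062 (SD, n = 3) in KD, a difference of 1.84 (SE 0.038, limma adjusted p = 9.92e-28), and to 8.69 ± 0.021 (SD, n = 3) in OE, a difference of 1.66 (SE 0.038, limma adjusted p = 1.27e-25). Exons of other genes cover 35.7% of its exonic bases. PPFIA4, a liprin, was higher by 0.96 in KD (limma adjusted p = 4.14e-26) and 1.28 in OE (limma adjusted p = 8.10e-28). CCNG2, a cyclin tied to growth arrest, was higher by 1.36 in KD (limma adjusted p = 9.92e-28), where the median of its neighbours taken in each library differed by 0.28, and by 0.58 in OE (limma adjusted p = 3.50e-17). The glucose transporter SLC2A3 was higher by 0.68 in KD (limma adjusted p = 9.97e-22) and 0.74 in OE (limma adjusted p = 1.03e-21). TMEM45A was higher by 0.44 in KD (limma adjusted p = 2.43e-11) and 1.0025 in OE (limma adjusted p = 1.94e-19), and the mitophagy receptor BNIP3 by 0.56 (limma adjusted p = 1.84e-24) and 0.83 (limma adjusted p = 1.10e-27).

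Some listed targets moved the other way. TFRC, the transferrin receptor, was lower in KD (-0.72, limma adjusted p = 4.82e-29) and in OE (-0.35, limma adjusted p = 6.32e-20). HMOX1, heme oxygenase, was lower in KD (-0.69, limma adjusted p = 3.69e-16) and in OE (-0.20, limma adjusted p = 9.40e-05). CCND1, a cyclin, was also lower in KD (-0.14, limma adjusted p = 3.95e-11) and in OE (-0.36, limma adjusted p = 1.05e-20). In the same libraries the alpha subunit HIF1A differed from parental by -0.14 and -0.13, EPAS1 by -0.013 in KD and 0.31 in OE, ARNT by 0.21 and 0.065, VHL by -0.34 and 0.043 and HIF1AN by 0.10 and -0.054. No gene of this set other than ARNT was higher than parental in both groups by the test. Outside the set, the other beta subunit ARNT2 was higher than parental by 1.45 in KD and by 0.26 in OE. Whether any of these RNA differences has a part in the higher targets was not tested.

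**Figure D5:**
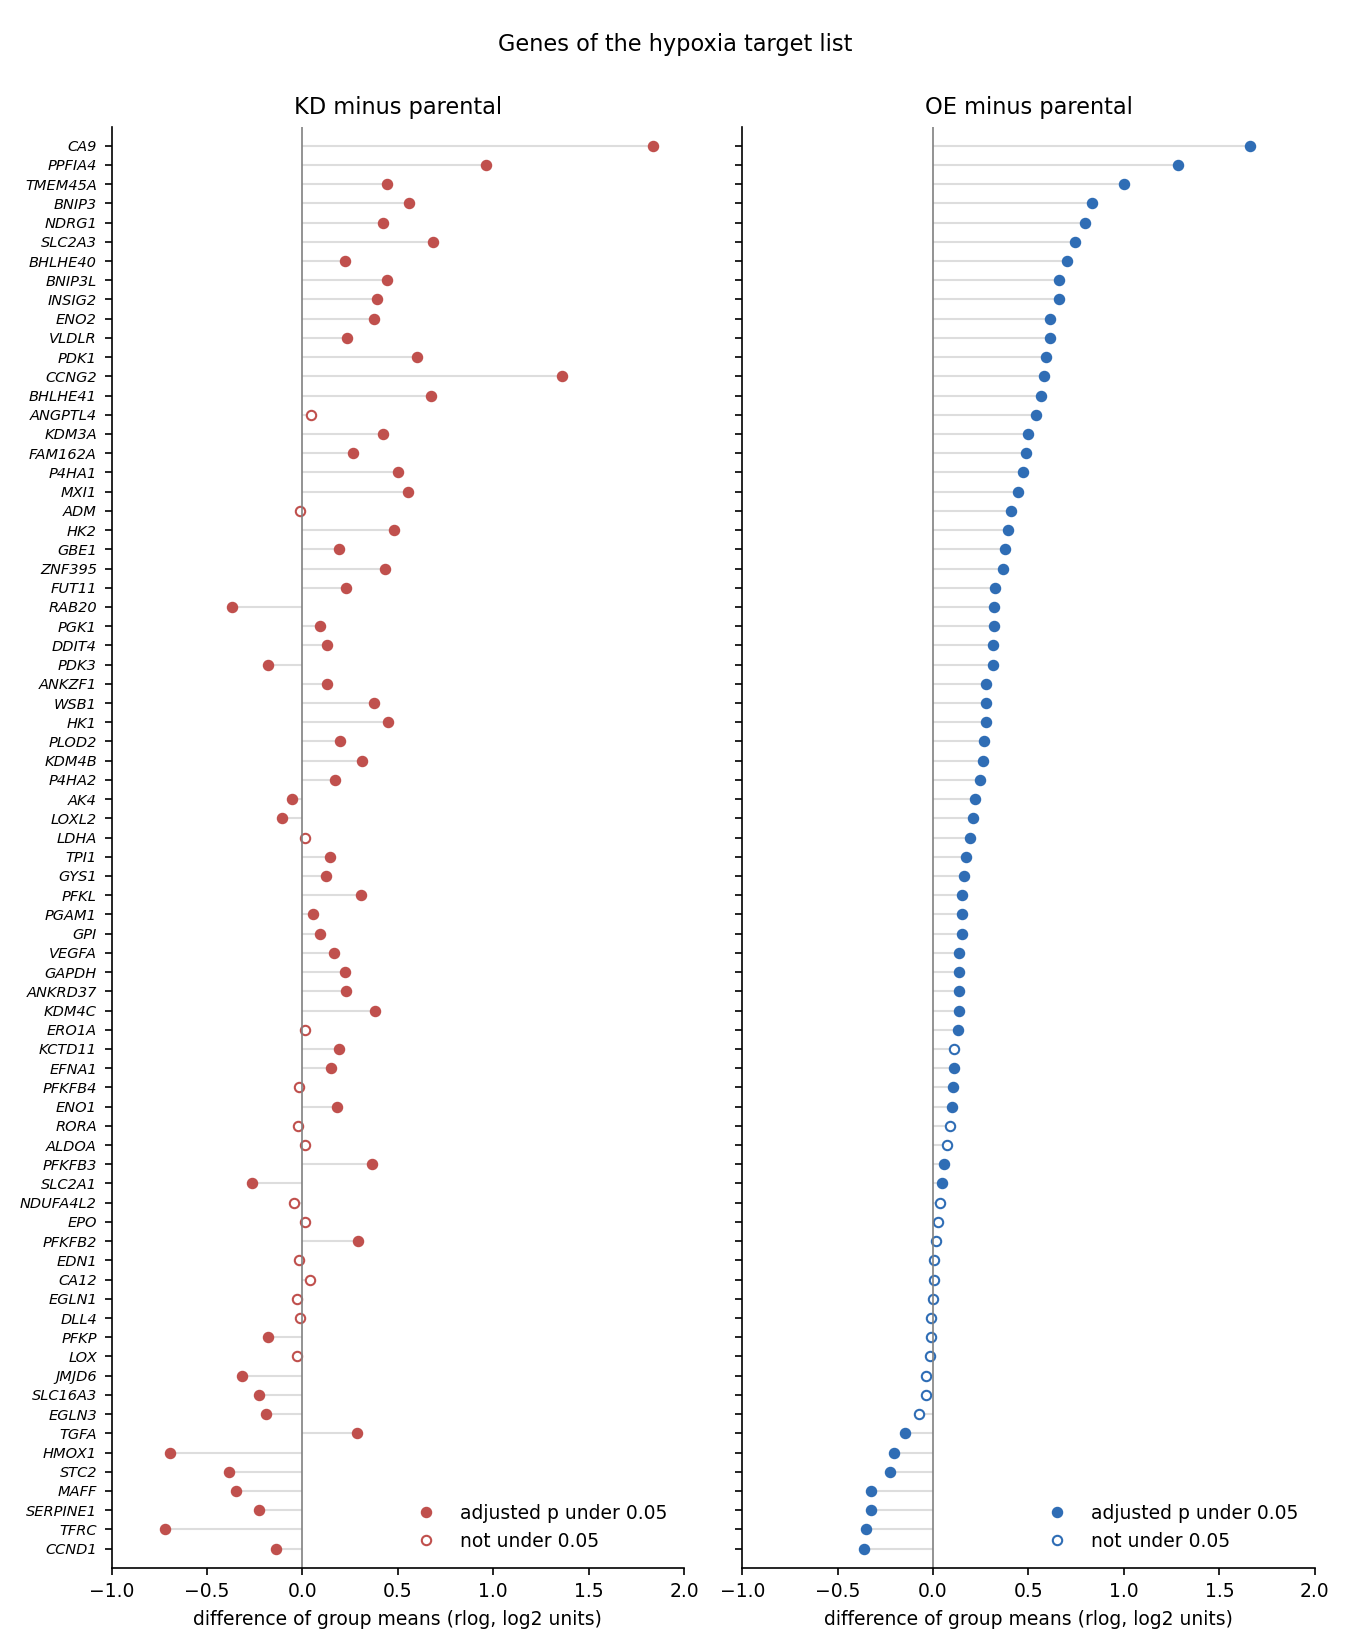
Each line is 1 of the 74 hypoxia targets with values, with its difference from parental in KD (left) and OE (right) in rlog (log2 units), filled where the limma adjusted p was under 0.05, and the genes are ordered by the OE difference. CA9 is at the top of both panels (1.84 and 1.66), and TFRC and CCND1 are at the bottom on the right.

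The genes most like each HIF gene were found by Pearson r over the 9 libraries among 13969 genes whose mean rlog reached 5, as a description that rests largely on the 3 group means. For EPAS1 they were LAMP1 (0.993), LRP5 (0.988) and LINGO1 (0.985), and for HIF1A they were PINK1 (0.926), C16orf95 (0.899) and TXNDC12 (0.886). For ARNT they were MOV10, RAB5B and FOXJ3 (0.992 to 0.993), and for HIF1AN they were FGF13 (0.995), TGFA (0.993) and FGF14 (0.992). The nearest genes to VHL were APBA1 on chromosome 9 (0.997), TRAK1 on chromosome 3 (0.997) and OLFML2A on chromosome 9 (0.995). For EGLN1, at its low level, they were SMG6 (0.899), MRPS21 (0.864) and TRAF3IP2-AS1 (0.847).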

How the data were processed

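RNA levels were taken from the table the authors deposited, which holds log2 values after the rlog transform for 22290 genes and 9 libraries, with 3 further named columns that were not used. According to the authors, reads were trimmed with cutadapt, aligned to GRCh38 with HISAT2 and counted with featureCounts of Subread, genes with a total count under 10 were removed, and the rlog values came from DESeq2. The versions of these programs, the annotation release and the counting options are not given in the sources used here, and the library kit does not mark strand.

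The 3 groups were compared here on the rlog values with limma 3.58.1 in R 4.3.3, in a single model of the 9 libraries with moderated variances that follow a trend on the level. P-values were adjusted by the Benjamini-Hochberg method over the 22290 genes, and a gene was called at an adjusted p under 0.05. The rlog transform shrinks differences, so they understate the change in RNA. Tables were made with Python 3.11.15, and coordinates and exons came from GENCODE release 44. A base was counted as shared where exons of another gene, on either strand, cover it.

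The HIF genes and the lists of related genes were chosen with earlier results of these data known. Of the lists of relatives, hydroxylases and ligase partners, the 2 called genes with the largest absolute difference in each comparison were named by value. Of the other lists, the 4 called higher and the 2 called lower with the largest differences from parental were named. Chromosomal neighbours were the other genes of the same 20-Mb stretch whose mean rlog was 5 or more.

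The counts of all genes, HIF genes and higher hypoxia targets, and the differences of the HIF genes, EGLN3 and TRAP1, were also computed with the replicate number as a block, without the variance trend, without genes whose mean rlog was under 5, with equal library medians, after quantile normalization and on the 6 libraries compared. Further alternatives subtracted the median of chromosomal neighbours, left out each library in turn or used the unadjusted p. Other genes and lists were fitted once, with no alternative.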

Additional observations from a re-analysis of the deposited data

How the results depend on the processing

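Over 17 alternatives the genes called numbered 10189 to 13193 (KD against parental), 6857 to 9323 (OE against parental) and 9171 to 11715 (OE against KD), with 3 to 4, 2 to 4 and 4 HIF genes among them and 45 to 47, 49 to 53 and 35 to 40 hypoxia targets higher. With the replicate block, all genes called were 12015, 7854 and 10623, HIF genes 4, 4 and 4 and higher targets 46, 52 and 37, and HIF1A was called between OE and parental (limma adjusted p = 0.0404). Residuals of libraries with the same number correlated at -0.0711 to 0.14 and those with different numbers at -0.139 to 0.0748 (medians -0.0068 and 0.0061). Between KD and OE alone, same numbers correlated at 0.0231 to 0.14 and different numbers at -0.139 to 0.026. Whether libraries with the same number belong together was not tested further. A few differences near 0 changed sign. Leaving out single libraries, EPAS1 between KD and parental ranged from -0.035 to 0.0062, EGLN1 between OE and parental from -0.019 to 0.027, TRAP1 between OE and parental from -0.012 to 0.042 and HIF1A between OE and KD from -0.032 to 0.063. EGLN1 between OE and parental was -0.018 after the medians of neighbours were subtracted, and HIF1A between OE and KD was -0.0034 after quantile normalization, and the cause was not tested. EGLN1 was not tested where low genes were left out. With 3 libraries a group and shrunken values, how small a difference of low genes such as EGLN1 could be resolved was not tested.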

Other observations

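CTSK, the cathepsin K gene, lies next to ARNT on the same strand and was looked at after its value was seen. Its rlog was 7.56, 7.60 and 7.57 in the parental libraries, 9.56, 9.57 and 9.56 in those labelled KD and 8.56, 8.56 and 8.60 in those labelled OE. It was higher than parental by 1.99 in KD (SE 0.034, limma adjusted p = 3.58e-30) and by 0.997 in OE (SE 0.034, limma adjusted p = 3.14e-21), beside 0.21 and 0.065 for ARNT. HIF1A-AS1, an antisense RNA at the start of HIF1A, was lower in KD than in parental by a difference of -0.43 (SE 0.048, limma adjusted p = 2.59e-09), and its OE difference was -0.12 (limma adjusted p = 0.0523). Exons of HIF1A cover 12.8% of its exonic bases, and the library kit did not keep strand, so reads there cannot be assigned to 1 gene.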
